A study of Mus musculus with 4 samples.

Results

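The loci of the 5 C/EBP transcription factor genes Cebpa, Cebpb, Cebpd, Cebpe and Cebpg were examined in hematopoietic stem cells that carried or lacked the Mediator subunit Med23. Members were the ATAC-seq peaks on the 19 autosomes (mouse build mm10) that overlapped 1 of these genes extended by 50 kb on each side. ATAC-seq uses a transposase to insert adapters into open DNA, so a peak marks an accessible region. The 5 loci held 19 of the 36849 autosomal peaks in WT and 25 of the 36600 in KO. Peaks that overlapped by at least 1 bp were merged, which gave 26 of the 44263 autosomal regions.

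The cells were bone marrow stem cells of adult C57BL/6 mice, sorted as LSK CD150+CD34-CD48- by the labels. The study's methods for this assay name CD150+ and CD48- LSK cells without CD34, so whether CD34 was part of the sort is not settled. All mice carried the floxed Med23 allele. WT mice had no cre (Med23floxp/flowp, as the labels spell it) and KO mice also had Mx1-cre, which is switched on by interferon and is not limited to stem cells. The study's methods induce it by poly(I:C), but whether the WT mice of this assay received it, and how many mice went into a sample, is not given in the sources used here. The labels give 2 samples per genotype, but the 2 samples of a genotype share 1 peak list. There was therefore 1 WT list and 1 KO list, and none of the values below has a replicate check or a test.

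C/EBP factors are basic leucine zipper proteins. They bind DNA as dimers and switch on genes of the granulocyte and monocyte lineages. Cebpa drives the entry of progenitors into the granulocyte and monocyte path and restrains their division. Cebpb serves the stress-induced production of granulocytes, and Cebpd is an acute phase and inflammation gene. Cebpe governs late granulocyte maturation and the secondary granules. Cebpg lacks a strong activation domain and works as a dimer partner.

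Cebpa (ENSMUSG00000034957.10) lies on the plus strand of chromosome 7, chr7:35119293-35121928. Cebpg (ENSMUSG00000056216.9) lies on the minus strand of the same chromosome, chr7:35046422-35056573, 62719 bp away, so the 2 windows overlapped by 37281 bp and shared 3 regions. Cebpb (ENSMUSG00000056501.3) is at chr2:167688915-167690418 on the plus strand, Cebpd (ENSMUSG00000071637.5) at chr16:15887286-15891031 on the plus strand and Cebpe (ENSMUSG00000052435.7) at chr14:54710360-54712174 on the minus strand. The annotation, GENCODE M21, is of the build the authors used. Cebpa, Cebpb and Cebpd each have 1 exonic block and no intron.

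Of the 5 members, 3 were matched in the RefSeq promoter table (Cebpa, Cebpb and Cebpg) and 2 were not (Cebpd and Cebpe). The matched promoters are shown because the promoter peak of each was found in both lists. They are RefSeq sequences (GRCm38.p6) cut just before the first annotated exon, and each reads 5′ to 3′ along its gene. They lie at chr7:35119043-35119292 on the plus strand, chr2:167688665-167688914 on the plus strand and chr7:35056574-35056816 on the minus strand.
Cebpa: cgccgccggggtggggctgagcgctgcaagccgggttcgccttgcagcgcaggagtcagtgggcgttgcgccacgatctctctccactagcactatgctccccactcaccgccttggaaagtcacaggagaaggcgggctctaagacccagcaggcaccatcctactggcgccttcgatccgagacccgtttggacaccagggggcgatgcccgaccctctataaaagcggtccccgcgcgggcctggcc
Cebpb: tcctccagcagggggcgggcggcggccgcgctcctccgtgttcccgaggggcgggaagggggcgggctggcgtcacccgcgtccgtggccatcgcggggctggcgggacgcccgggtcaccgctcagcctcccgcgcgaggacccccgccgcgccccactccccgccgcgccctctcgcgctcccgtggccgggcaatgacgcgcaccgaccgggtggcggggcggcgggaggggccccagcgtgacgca
Cebpg: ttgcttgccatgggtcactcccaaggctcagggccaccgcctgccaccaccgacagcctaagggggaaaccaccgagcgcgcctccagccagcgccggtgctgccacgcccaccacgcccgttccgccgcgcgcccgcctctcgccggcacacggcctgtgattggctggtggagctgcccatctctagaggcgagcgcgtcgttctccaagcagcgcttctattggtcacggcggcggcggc
The GC content was 66.4%, 81.6% and 70.4% in this order. None of the 3 full RefSeq promoter windows, which run 50 bases past the start, held a match to any of 8 motifs searched on both strands. The CEBP motif, bound by C/EBP dimers, was searched as TTGCNNAA. CRE, the site of cyclic AMP response factors, was searched as TGACGTCA. AP1, the site of Jun and Fos dimers, was searched as TGANTCA. PU1, the core bound by the myeloid factor PU.1, was searched as GAGGAA. RUNX, the core bound by Runx factors, was searched as TGTGGT. The motif of Gata factors was searched as AGATAA. EBOX, bound by basic helix-loop-helix factors, was searched as CAGCTG, and the last was the motif of CTCF. No motif's letters are contained in another's. Of all 32851 promoters in the table, 10.8% held CEBP, 1.79% CRE, 7.81% AP1, 28.3% PU1, 16.8% RUNX, 11.2% GATA, 16.3% EBOX and 0.0791% CTCF.

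The next 6 sequences are windows of 200 bp around KO summits. The first pair is the regions 5.7 and 8.0 kb downstream of the Cebpa start site, where the KO signal exceeded the WT signal most at that locus. The third is the region 37.4 kb downstream of the start site, in the area of the known myeloid enhancer of mouse Cebpa. The fourth is the KO-only peak in the Cebpa coding exon. The fifth had the highest KO to WT ratio at Cebpb, and the sixth is the region downstream of Cebpe. Capitals mark motif matches. Their positions are chr7:35124856-35125055, chr7:35127213-35127412, chr7:35156544-35156743 and chr7:35120080-35120279 (plus strand), chr2:167697954-167698153 (plus strand) and chr14:54705834-54706033 (minus strand).
Cebpa, 5.7 kb: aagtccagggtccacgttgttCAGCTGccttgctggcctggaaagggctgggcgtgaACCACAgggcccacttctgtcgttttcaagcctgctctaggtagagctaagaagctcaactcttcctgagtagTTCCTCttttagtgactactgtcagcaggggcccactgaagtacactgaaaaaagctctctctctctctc
Cebpa, 8.0 kb: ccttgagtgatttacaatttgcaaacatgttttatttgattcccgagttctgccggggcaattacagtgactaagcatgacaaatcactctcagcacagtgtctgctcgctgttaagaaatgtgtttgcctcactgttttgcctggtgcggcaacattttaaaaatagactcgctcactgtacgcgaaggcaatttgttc
Cebpa, 37.4 kb: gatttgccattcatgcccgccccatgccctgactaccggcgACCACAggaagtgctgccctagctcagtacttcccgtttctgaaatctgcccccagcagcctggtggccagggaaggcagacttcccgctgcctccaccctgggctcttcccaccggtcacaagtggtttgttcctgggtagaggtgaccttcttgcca
Cebpa, coding exon: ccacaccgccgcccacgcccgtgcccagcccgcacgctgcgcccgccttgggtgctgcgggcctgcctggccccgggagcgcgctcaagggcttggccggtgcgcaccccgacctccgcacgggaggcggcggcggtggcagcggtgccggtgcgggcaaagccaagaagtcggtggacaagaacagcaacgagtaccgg
Cebpb, 9.1 kb: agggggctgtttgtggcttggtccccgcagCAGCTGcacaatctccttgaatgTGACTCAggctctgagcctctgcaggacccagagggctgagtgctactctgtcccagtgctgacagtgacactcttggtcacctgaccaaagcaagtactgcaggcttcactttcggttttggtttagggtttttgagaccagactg
Cebpe, 6.2 kb: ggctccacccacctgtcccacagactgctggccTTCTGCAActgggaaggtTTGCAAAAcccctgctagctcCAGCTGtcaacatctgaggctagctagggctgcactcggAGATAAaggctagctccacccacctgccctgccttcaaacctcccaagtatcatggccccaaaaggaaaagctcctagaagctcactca
The Cebpa region at 5.7 kb held 1 match each to EBOX, RUNX and PU1, the last 2 read on the other strand, and the region at 37.4 kb held 1 RUNX match. The Cebpe region was the only 1 of the 26 whose window held CEBP, with 2 matches, beside 1 EBOX and 1 GATA match. Over all autosomal KO peaks, 7.64% of such windows held CEBP, 29.5% PU1, 20.1% RUNX, 14% EBOX, 8.45% GATA and 7.97% AP1. At the 5 loci 1 of 25 KO windows (4%) held CEBP, 5 (20%) PU1, 6 (24%) RUNX, 7 (28%) EBOX, 1 GATA and 3 AP1. CRE and CTCF had 0 matches in these windows.

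The scale of the values was set as follows. The authors' peak caller gives the fold enrichment of the summit over its local background. The pileup, the whole number of fragments or reads stacked at the summit, was recovered from that value and the −log10 p. The KO to WT ratio of a region is the ratio of its pileups, each divided by the genome-wide background of its list (1.19 in WT and 1.13 in KO), on the log2 scale. The 95% interval given with it was computed from both pileups by the exact binomial method. It covers counting error only, not the spread between mice. Read totals are unknown. The median pileup over all autosomal peaks was 18 in WT and 19 in KO, and the median log2 ratio over all 28119 regions with 1 peak of each list was 0.17 (SD 0.42 across regions).

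The sort and the deletion were checked first. Among stem cell marker genes, promoter peaks were present at Kit, Mecom, Hlf, Meis1 and Fgd5 in both lists, and absent at Ly6a, Slamf1, Procr and Hoxb5 in both. Of 8 mature myeloid genes, 4 had a promoter peak in WT (Ltf, S100a8, S100a9 and Lyz2) and 1 in KO (Lyz2). These WT peaks were weak, with fold enrichments of 4.56, 4.98, 3.91 and 3.44, against an autosomal WT median of 6.38. At Lyz2 the KO value was higher (6.92). Of all autosomal regions, promoters or not, 18.1% were WT-only and 17.2% KO-only. The part of mature myeloid cells in the values at the C/EBP loci was not tested. In sorted bulk cells a different share of open cells and a different openness per cell cannot be told apart. Of 5 lymphoid genes 1 (Ebf1) had a promoter peak in each list. The promoter of Med23 itself had a pileup of 64 in WT and 85 in KO, and no summit lay inside its gene in either list, so the deletion could not be checked from the peaks.

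The first comparison asked which regions were present in each list. Of the 26 regions, 18 were in both lists, 7 in KO only and 1 in WT only. The KO-only regions made up 26.9% of the regions at these loci, against 17.2% over the autosomes, and the WT-only region 3.85%, against 18.1%. Cebpa held 4 of the 7 KO-only regions, Cebpb 2 and Cebpd 1, and the WT-only region lay at Cebpg. Cebpe had the same 2 regions in both lists. Promoter peaks of Cebpa, Cebpb, Cebpd and Cebpg were present in both lists, and no peak lay at the Cebpe promoter in either.

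**Figure D1:**
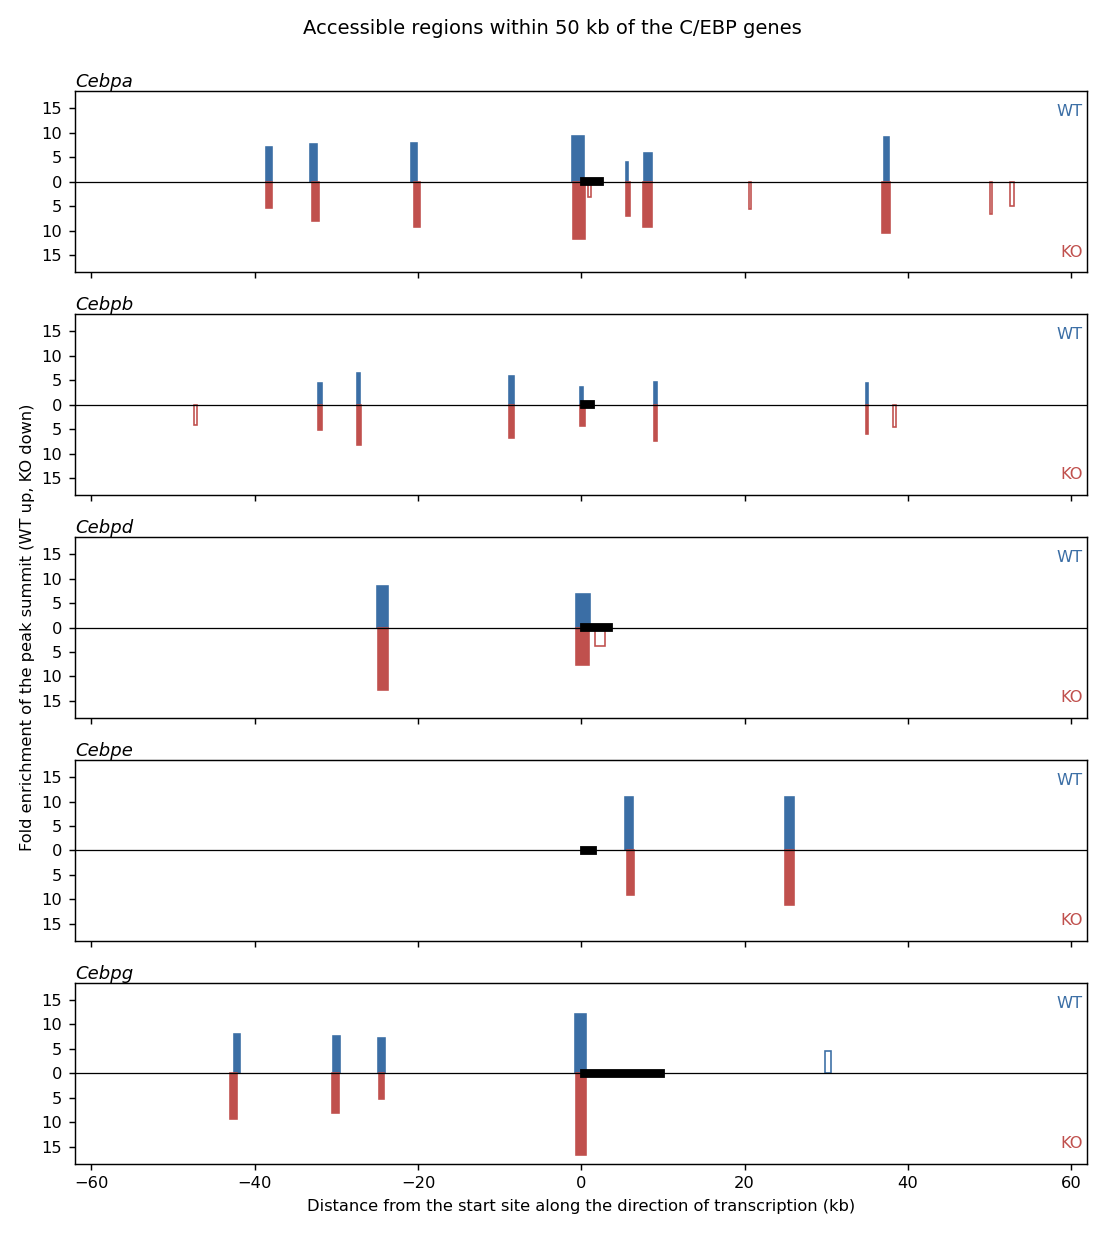
Peaks at the 5 loci by distance from the start site of the gene (kb, in the direction of transcription), with the fold enrichment of the WT peak upwards and of the KO peak downwards. Bar width is the true width of the peak, open bars are peaks in that list only (7 KO, 1 WT), and black boxes are the genes. The 3 regions upstream of Cebpa appear again upstream of Cebpg.

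The peaks in 1 list only were weak. The 7 KO-only peaks had −log10 q values between 3.30 and 9.39 and pileups between 8 and 24. Of the 25 KO peaks at the loci, 11 had a −log10 q under 10, and 7 of these 11 (63.6%) had no WT overlap, against 41.4% of such KO peaks over the autosomes. Of the 7 WT peaks under this limit, 1 (14.3%) had no KO overlap, against 39.3%. With 11 and 7 peaks, these shares rest on very few peaks. A region absent from a list fell short of the caller's threshold there and was not necessarily closed. The smallest pileup in either list was 6.

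**Figure D2:**
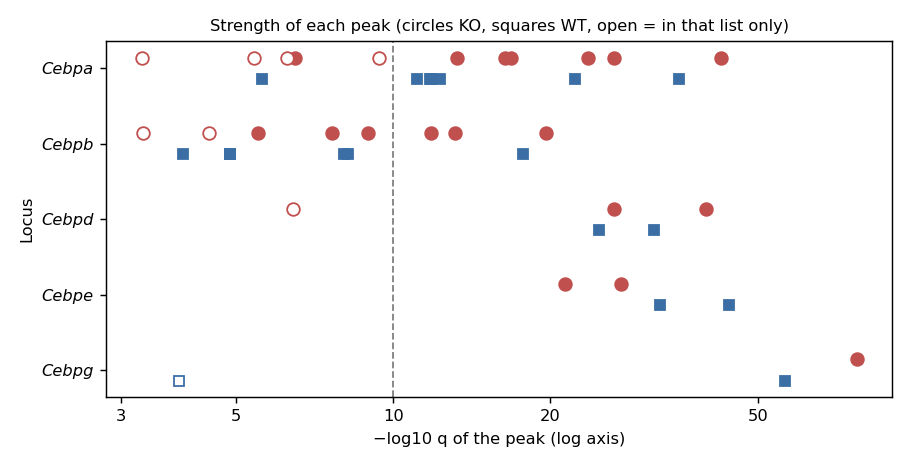
The −log10 q of each peak at the 5 loci (log axis), with KO peaks as circles and WT peaks as squares and peaks in that list only as open marks. Regions in the windows of both Cebpa and Cebpg are drawn at Cebpa, and the dashed line marks a −log10 q of 10. All 8 open marks lie left of the line.

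The second comparison was of covered bases. Together the windows, 482572 bp, held 15413 bp inside WT peaks and 18141 bp inside KO peaks, a difference of 2728 bp. The members differed in direction. Covered bases were higher in KO at Cebpa (5731 bp in WT, 7458 bp in KO), Cebpb (2407 and 3426 bp) and Cebpd (3116 and 4054 bp), and lower at Cebpe (2174 and 1934 bp) and Cebpg (4325 and 3548 bp). Thus 3 of 5 members had more covered bases in KO, against 42.0% of the 20807 autosomal coding genes, and 2 of 5 had fewer, against 45.4%. The median difference was 938 bp over the members and 0 bp over all these genes, whose quartiles were −399 and 328 bp. The member median was the value of Cebpd and depended on weak peaks. Without peaks under a −log10 q of 10, the differences were 177 bp (Cebpa), 1089 bp (Cebpb), −347 bp (Cebpd), −240 bp (Cebpe) and −780 bp (Cebpg). This limit also split some pairs of overlapping peaks. In the windows of Cebpa and Cebpg, chr7:35080661-35081430 kept its WT peak (770 bp) and lost its KO peak (673 bp). At Cebpb the KO peaks of 624 and 361 bp stayed while the WT peaks they overlap were dropped. The values at Cebpb and Cebpg under this limit thus come largely from split pairs.

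Per kb of window, Cebpa was the most covered member, with 55.8 bp (WT) and 72.7 bp (KO). In WT it was followed by Cebpg (39.3 bp), Cebpd (30.0 bp), Cebpb (23.7 bp) and Cebpe (21.4 bp). The 3 regions in both windows (770, 841 and 729 bp in WT) count for Cebpa and for Cebpg. They make up much of the 4325 bp of Cebpg in WT, so the values of these 2 members are not independent. In KO the order was Cebpa, Cebpd (39.1 bp), Cebpb (33.8 bp), Cebpg (32.2 bp) and Cebpe (19.0 bp). The median over coding genes was 20.1 bp (WT) and 19.5 bp (KO), so Cebpe was close to it in both lists and the other 4 were above it. No replicate spread exists against which neighbours in these orders could be told apart.

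The differences were divided into regions in both lists and regions in 1 list. At Cebpa 1159 of 1727 bp came from KO-only peaks and 568 bp was the net over the 7 shared regions, of which 4 were wider in KO. The other 3 were narrower. At Cebpb the parts were 582 bp from KO-only peaks and 437 bp from shared regions. At Cebpd the KO-only peak covered 1285 bp while the shared regions gave −347 bp, being narrower in KO. At Cebpe the whole difference of −240 bp came from shared regions. At Cebpg the WT-only peak accounted for −670 bp and shared regions for −107 bp. When peaks under a −log10 q of 10 were left out of both lists, the difference was 177 bp at Cebpa and −347 bp at Cebpd, where the KO-only peak no longer counted.

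**Figure D3:**
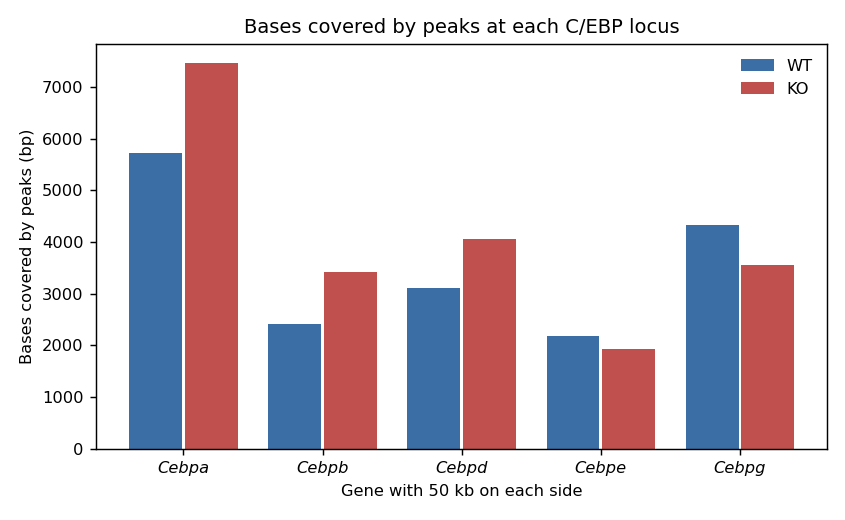
Bases covered by peaks in each gene with 50 kb on each side, in WT (blue) and KO (red), 1 list per genotype and thus without error bars. KO bars are taller at Cebpa, Cebpb and Cebpd and shorter at Cebpe and Cebpg. The windows of Cebpa and Cebpg overlap.

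The third comparison was of signal in the 18 shared regions. The median log2 ratio was 0.17 at the loci and 0.17 over all shared autosomal regions. Of the 18 regions, 12 had a ratio above 0 and 9 a ratio above the autosomal median. Of all shared autosomal regions, 63.3% had a ratio above 0.028 and 68.0% a ratio above −0.025. The count of 12 of 18 was thus close to the autosomal share above 0. At least 1.5-fold higher in KO were 3 of 18, against 15.0% over the autosomes, and 1 of 18 was at least 1.5-fold lower, against 3.66%. The interval lay wholly above 0 in 0 of 18 regions, against 5.49%, and wholly below 0 in 1, against 0.384%. Fold enrichment was higher in KO in 16 of 18 regions, against 77.4% over the autosomes, and 10 of 18 peaks were wider in KO, against 51.1%.

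**Figure D4:**
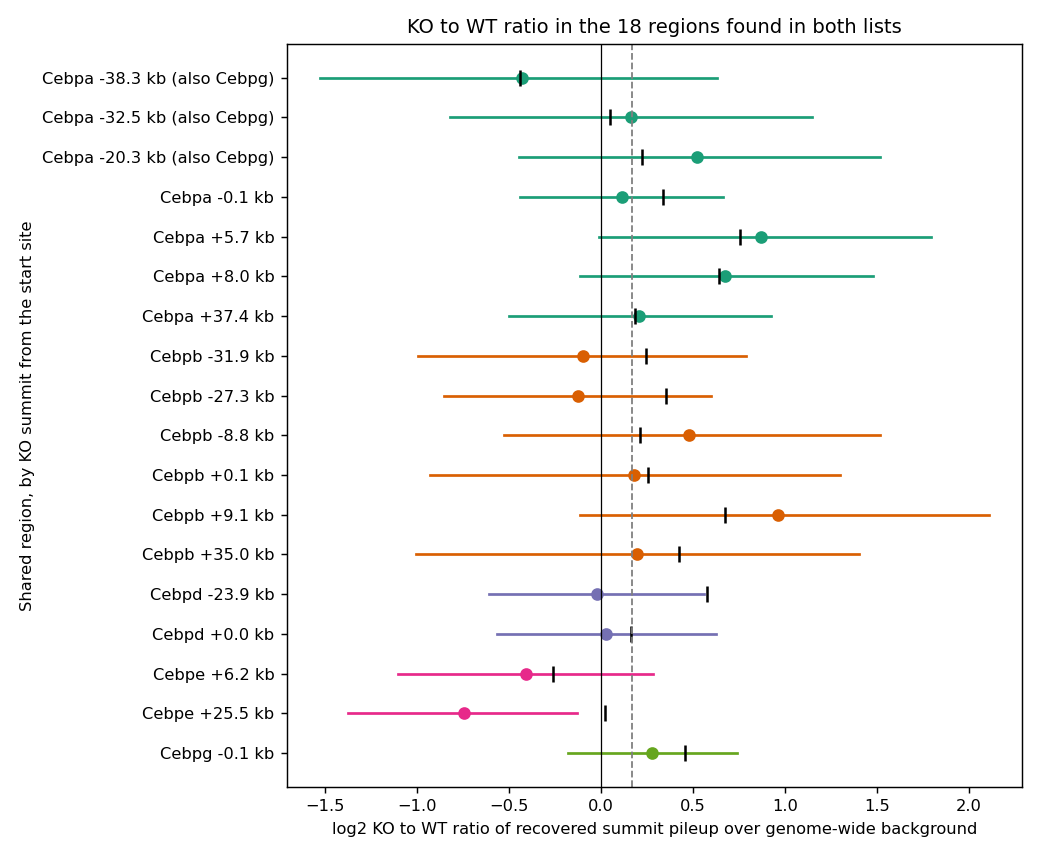
The log2 KO to WT ratio of recovered summit pileup over genome-wide background in each of the 18 shared regions (circles, colored by locus), with the 95% exact binomial interval of counting error as lines. Short black bars give the log2 ratio of the authors' fold enrichment, and the dashed line is the median of all shared autosomal regions, 0.17. The interval lies wholly below 0 at the region 25.5 kb downstream of Cebpe and reaches 0 at the other 17.

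At Cebpa the promoter peak, summit 0.1 kb before the start site, had a pileup of 57 in WT and 58 in KO (log2 ratio 0.11, −0.44 to 0.66). Its fold enrichment was 9.29 (WT) and 11.7 (KO), over local backgrounds of 5.24 and 4.03. The promoter was thus nearly equal in pileup, and the local background was lower in KO. The median local background over all autosomal peaks was also lower in KO (1.67, against 1.85 in WT). The peak measured 1544 bp (WT) and 1476 bp (KO).

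Downstream of Cebpa the shared regions had higher values in KO. The region chr7:35124739-35125265, intergenic, had a pileup of 18 in WT and 31 in KO (log2 ratio 0.87, −0.01 to 1.79). The fold enrichment there was 4.14 (WT) and 6.98 (KO), over local backgrounds of 3.59 and 3.58. Both lists thus had the same background there, and the peak measured 282 bp in the WT list against 527 bp in the KO list. The next, chr7:35126840-35127941, had 24 in WT and 36 in KO (0.67, −0.11 to 1.48), a fold enrichment of 5.92 and 9.22, and a width of 913 and 1102 bp. At both regions the local backgrounds of the lists were close, so pileup and fold enrichment gave like ratios, and both intervals reached 0. Of all shared autosomal regions, 4.61% had a higher ratio than the first and 9.85% a higher ratio than the second. These were the highest ratios of the 7 shared regions at Cebpa. Their ranks are therefore those of picked regions and do not mark the locus as unusual.

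The region at the known myeloid enhancer, chr7:35156173-35157087, had a pileup of 34 in WT and 37 in KO (0.21, −0.50 to 0.92). Its fold enrichment was 9.16 (WT) and 10.4 (KO), and the peak measured 652 and 915 bp. The enhancer region was therefore open in both lists, with a ratio close to the autosomal median and a wider peak in KO.

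Upstream of Cebpa the 3 regions that also lie in the Cebpg window did not share a direction. The farthest, chr7:35080661-35081430, had 20 in WT and 14 in KO (−0.43, −1.53 to 0.63). The middle one, chr7:35086119-35087107, near the start of the noncoding gene Gm35611, had 19 in WT and 20 in KO (0.16, −0.82 to 1.15). The nearest, chr7:35098400-35099575, had 17 in WT and 23 in KO (0.52, −0.45 to 1.52). With pileups of 14 to 23, counting error alone spans both directions at each.

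The 4 KO-only peaks at Cebpa lay downstream of the start site. The first, chr7:35120090-35120516, had its summit in the coding exon, 0.9 kb from the start site, with a pileup of 17 over a local background of 4.80. Its fold enrichment of 3.10 was at percentile 0.511 of the KO list. It lay within 1000 bp of an annotated start site, so that it also counts as a promoter peak by distance. The others, at 20.7, 50.3 and 52.8 kb, had pileups of 12, 16 and 12 over local backgrounds of 1.34, 1.55 and 1.61. The peak at 20.7 kb lay in an intron of the noncoding gene Gm35665 and the 2 farthest were intergenic. The farthest peak reached past the end of the window, and only its part inside counted towards the covered bases.

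At Cebpb the promoter peak was weak in both lists. Its pileup was 15 in WT and 16 in KO (log2 ratio 0.18, −0.93 to 1.30), and its fold enrichment of 3.66 and 4.36 was at percentile 8.34 of the WT list and 12.3 of the KO list. It measured 468 bp (WT) and 615 bp (KO). In comparison, the promoters of Cebpa, Cebpd and Cebpg had pileups of 49 to 88. Tmem189, on the opposite strand, overlaps Cebpb and has a start site near the same peak.

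All 6 shared regions at Cebpb were wider in KO and had a higher fold enrichment there. Of all shared autosomal regions, 51.1% were wider in KO and 77.4% had a higher fold enrichment. By the pileup ratio, 4 of the 6 were above 0. The highest ratio was at chr2:167697861-167698221, 9.1 kb downstream in an intron of the noncoding gene A530013C23Rik, with a pileup of 12 in WT and 22 in KO (0.96, −0.12 to 2.11) and a fold enrichment of 4.65 and 7.40. It was the highest ratio at the 5 loci, and its interval reached 0. The lowest was at the Tmem189 promoter, chr2:167661491-167661933, with 37 in WT and 32 in KO (−0.12, −0.85 to 0.60). There the fold enrichment was higher in KO (6.52 and 8.31) and the local background lower (4.83 and 2.97).

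Of the other 3 shared regions of Cebpb, that at −31.9 kb had 25 and 22, that at −8.8 kb 16 and 21, and that at 35.0 kb 13 and 14 in WT and KO. The counting interval of each included 0. The KO-only peak at −47.3 kb, in an intron of Gm20431, had a pileup of 8, the smallest at the loci. The other, at 38.5 kb in an exon of A530013C23Rik, had 11.

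At Cebpd the promoter peak had a pileup of 51 in WT and 49 in KO (0.03, −0.57 to 0.62). It measured 1745 bp (WT) and 1490 bp (KO), and its fold enrichment was 6.83 and 7.65. The second shared region, chr16:15862294-15863664, lay at the start site of Mzt2 and had 54 in WT and 50 in KO (−0.03, −0.61 to 0.56). Its fold enrichment was 8.57 (WT) and 12.8 (KO), over local backgrounds of 5.42 and 2.99. Pileups at both regions were nearly equal between the lists.

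The KO-only peak at Cebpd, chr16:15888924-15890208, was the widest peak in 1 list only. It lay within the gene, with its summit 1.9 kb from the start site in sequence annotated as untranslated. Its pileup was 24 over a local background of 5.58, and its fold enrichment of 3.80 was at percentile 5.90 of the KO list. It too lay within 1000 bp of an annotated start site of the gene.

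At Cebpe, both regions had lower pileups in KO. The region chr14:54705713-54706828, intergenic and 6.2 kb downstream of the start site, had 45 in WT and 32 in KO (−0.41, −1.11 to 0.28). Its fold enrichment was 11.0 in WT and 9.18 in KO, and its width 1051 and 893 bp. An enhancer that Cebpe uses in granulocytes has been described downstream of the gene at about this distance. The region holds the 2 CEBP matches shown above. Its interval included 0, and 8.30% of all shared autosomal regions had a lower ratio.

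The other region of the Cebpe window, chr14:54686124-54687252, lay at the shared promoter of Acin1 and 1700123O20Rik. It had a pileup of 64 in WT and 36 in KO (−0.74, −1.38 to −0.13), and 1.5% of all shared autosomal regions had a lower ratio. The fold enrichment was 10.9 (WT) and 11.1 (KO), over local backgrounds of 4.94 and 2.34. The difference in pileup was not seen in fold enrichment, and what the local background contributed was not tested. It was the only region at the 5 loci whose interval excluded 0, and its ratio was the lowest of the 18 shared regions. Its rank is therefore also that of a picked region and does not mark the locus as unusual.

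At Cebpg the promoter peak was the strongest at the 5 loci. It had a pileup of 77 in WT and 88 in KO (0.28, −0.18 to 0.74), a fold enrichment of 12.2 and 16.8, and a local background of 5.37 and 4.30. Its summit was at the same base in both lists. By fold enrichment it was at percentile 96.7 (WT) and 98.2 (KO) of its list. The WT-only peak of this window, chr7:35026038-35026707, lay in an intron of Pepd, 30.2 kb downstream of the start site. It had a pileup of 9 and a −log10 q of 3.88.

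Among the promoters the order by pileup was the same in both lists. Cebpg stood first (77 in WT, 88 in KO), then Cebpa (57 and 58), Cebpd (51 and 49) and Cebpb (15 and 16), and Cebpe had no peak. The 95% Poisson intervals for counting error of Cebpa (43.2 to 73.9 in WT) and Cebpd (38.0 to 67.1) overlapped. That of Cebpb in WT, 8.40 to 24.7, did not overlap those of the other 3.

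Genes that work with or downstream of C/EBP factors were compared by covered bases within 50 kb. All 29 listed genes were measured, of which 12 had more covered bases in KO (41.4%, against 42.0% of all coding genes) and 16 fewer (against 45.4%), with a median difference of −21 bp. The share with more was thus close to that over all coding genes, while the share with fewer, 16 of 29, was larger. This difference was not tested. Among 9 regulators, relatives and partners, 3 had more and 6 fewer. All 4 cytokine receptors (Csf3r, Csf1r, Csf2ra and Il6ra) had fewer, with a median difference of −472 bp. At Csf2ra the difference was −6 bp (5590 bp in WT, 5584 bp in KO). Among 16 granule and effector genes, 9 had more and 6 fewer, and Ctsg had no peak in either list.

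The largest differences towards KO in this list were at Prtn3 (6548 bp in WT, 9450 bp in KO) and Elane (7103 and 8755 bp), neighbouring neutrophil protease genes with overlapping windows, and at Tef (4889 and 5599 bp), a PAR-type leucine zipper factor. The largest towards WT were at Hlf (7726 and 5891 bp), a leucine zipper factor of stem cells, and at S100a9 (2511 and 987 bp) and S100a8 (2402 and 930 bp), the calprotectin subunits of neutrophils, whose windows also overlap. The granule and effector genes thus held differences of both signs.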

How the data were processed

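The 4 ATAC-seq samples, 2 per genotype, were grouped by the genotype label. Before deposit, the authors used Trim Galore for adapter and quality trimming and Bowtie2 for alignment (build mm10). Picard served to drop duplicate and mitochondrial reads, and MACS2 called the peaks with its fragment model switched off. Versions are not given in the sources used here, nor whether replicates were pooled.

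Each deposited list gives the authors' fold enrichment of the summit, a ratio to the local background, the −log10 of its p-value and q-value as the authors deposited them, and a deposited display score that was not used. Fold enrichment adds 1 to pileup and background, so low peaks are understated. The deposited summit files matched the peak lists in 100% of summits. The lists hold no read counts, so depth is unknown. Reads without molecular identifiers are not independent molecules.

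Pileups were recovered as whole numbers under the caller's Poisson model, to within 0.001 of the −log10 p for 99.99% of peaks in each list. Recovery and merging were tested on simulated data. The genome-wide background was the median over the 1000 peaks with the lowest local background. The motif window was 200 bp, and a promoter peak had its summit within 1000 bp of a start site. Python 3.11.15, numpy 2.4.6, scipy 1.17.1 and pandas 2.3.3 were used.

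Members and lists were chosen with earlier results of these data known. Named singly were the members, the promoter peak, the regions of highest and lowest ratio and all regions in 1 list at each, and the 3 listed genes with the largest differences in each direction. Further regions of the loci are given because every peak was accounted for. Alternatives were other windows, −log10 q limits, overlap rules and scales. Some marker genes are not reported here.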

Additional observations from a re-analysis of the deposited data

How the results depend on the processing

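No paired analysis was possible because the 2 samples of a genotype share 1 list. For the same reason no replicate could be left out. With no replicates, a count or a difference in covered bases was taken as moved when it changed by more than 1.5 times, and the median log2 ratio when it changed by more than 0.1. Other window sizes count more or fewer regions by construction. With 10 kb on each side there were 9 WT and 11 KO peaks, 0 WT-only and 2 KO-only regions, and a median log2 ratio of 0.28. With 100 kb there were 34 WT and 41 KO peaks, 5 WT-only and 12 KO-only regions, and a covered difference of 5296 bp. Keeping peaks from a −log10 q of 5 upwards left 0 WT-only regions. With a limit of 10 there were 12 WT and 14 KO peaks, 3 KO-only regions and a difference of 633 bp. All 3 of those KO-only regions overlap a WT peak under the limit. Requiring 50% of both peaks gave 2 WT-only peaks, and summits within 100 bp gave 5 WT-only and 11 KO-only peaks. Totals of regions in the other windows, and autosomal shares under the other limits and overlap rules, are not given here. These counts thus do not show whether the KO-only share stayed above that of the autosomes. The difference in covered bases over the 5 loci kept its sign in the 4 alternatives run for it. At single loci it changed sign at Cebpd with a limit of 10 (−347 bp), and with 100 kb at Cebpe (1426 bp) and Cebpg (84 bp). At Cebpa the difference of 1727 bp was 793 bp with 10 kb, 933 bp with 100 kb and 177 bp with a limit of 10. At Cebpb it was 241 bp with 10 kb (1019 bp before), and at Cebpd 1886 bp with 100 kb. At Cebpe it was −158 bp with 10 kb. At Cebpg the difference of −777 bp was −46 bp with 10 kb and −107 bp with a limit of 5, which drops the WT-only peak. Raw pileups lower every log2 ratio by the same amount, so the ratio near 0 at the Cebpd promoter became −0.058 by construction.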
